A study of Mus musculus with 14 samples.

Results

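Potassium channel subunit genes were examined in sorted supporting cells of the mouse cochlea. Members were all genes in the deposited count tables whose symbol starts with Kcn followed by letters and a number. Of 35976 genes in the tables, 97 matched. Of these, 93 encode channel subunits and 4 are antisense or non-coding RNA genes. The 71 subunit genes with 10 or more counts in at least 3 libraries were used: 32 of 40 voltage-gated (Kv) genes, 10 of 15 inward rectifier (Kir) genes, all 8 genes of the calcium-activated and Slo class (KCa), 8 of 14 two-pore-domain leak (K2P) genes and 13 of 16 accessory genes. The other 22 stayed below that minimum, and Kcnj1, Kcnj5, Kcnk16 and Kcnv2 had no count in any of the 14 libraries.

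Cochlear explants came from mice carrying a bacterial artificial chromosome transgene in which the Lfng regulatory region drives EGFP (B6;FVB-Tg(Lfng-EGFP)HM340Gsat/Mmucd, kept on C57BL/6). Every group carried this transgene. Explants taken at P0 or P6 were cultured for 24 h with 2 µM compound E (CompE), a γ-secretase inhibitor that blocks Notch receptor cleavage, or with its solvent DMSO, and EGFP+ cells were sorted. There were 4 P0 CompE, 4 P0 DMSO, 3 P6 CompE and 3 P6 DMSO libraries. The study's methods for dissociation and sorting state that 4 organs were pooled per tube. Its figure legend for these data gives another number of cochleae. The EGFP gate rests on Lfng, which is itself a Notch-responsive gene, and Lfng was lower with CompE (756 to 1139 RPM against 1144 to 3677 RPM at P0, where RPM is a count scaled to a library total of 1000000).

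Potassium channels set the resting potential and carry potassium out of or into cells. Kv channels open on depolarization, and Kir channels pass current mainly near rest and carry potassium uptake in glia-like cells. Most channels of the KCa class respond to calcium, and K2P channels give a steady leak. In the cochlea, supporting cells take up the potassium that hair cells release and pass it on through gap junctions, while BK channels carry a fast outward current of mature hair cells. Kcnq1 with Kcne1 secretes potassium in the stria vascularis, a tissue that lies outside the sensory epithelium.

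Total counts ranged from 19415066 to 44430063 per library. Summed levels of 10 supporting cell markers lay between 2240 and 11334 RPM, and those of 8 hair cell markers between 428 and 1736 RPM. Markers of strial marginal cells summed to at most 3.63 RPM, with Bsnd at 0 in every library. Both replicate 3 libraries at P6 stood apart. Their mesenchyme markers summed to 3297 RPM (CompE) and 4020 RPM (DMSO), against 914 to 2471 RPM in the other P6 libraries, and their hair cell markers to 1258 and 1168 RPM, against 428 to 622 RPM. Their immune cell markers summed to 64.1 and 25.8 RPM, against 1.55 to 7.11 RPM. Their supporting cell markers, at 2240 and 3159 RPM, were the lowest of each treatment at P6. At P0, hair cell markers were at 1133 to 1736 RPM with CompE and 590 to 1235 RPM in DMSO. The 6 mesenchyme markers were at 1207 to 1371 RPM against 940 to 1123 RPM, without overlap. Most of this was Lum, at 941 to 1139 RPM against 688 to 845 RPM. Dcn, Col1a1, Col3a1, Pdgfra and Postn overlapped between treatments, and none of them had a higher mean with CompE. Supporting cell markers were at 5180 to 6208 RPM against 6026 to 11334 RPM. The largest differences in mean RPM were in Lfng, at 756 to 1139 RPM against 1144 to 3677 RPM, and Jag1, at 793 to 970 RPM against 1233 to 2839 RPM. Sox2, Cdkn1b, Matn4 and Fabp7 were also lower with CompE without overlap. Sox9 and Prox1 had lower means and Fgfr3 and Rorb higher means with CompE, with overlap. The part of these in the channel differences was not tested. In bulk samples, fewer cells of a type and less RNA per cell cannot be told apart.

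The upstream sequences of 6 members on which the comparisons turn are shown first. They are Kcnh6, Kcna2, Kcnk10 and Kcng4, which differ between CompE and DMSO at P0, and the inward rectifiers Kcnj16 and Kcnj13, which differ between P6 and P0. Each is the part of the 250 bases before the RefSeq start (GRCm38.p6; the most upstream start where several are listed) that overlaps no GENCODE M21 exon, written from the 5′ end on the gene's own strand. Kcnh6 lies at chr11:106007898-106008123 (+), Kcna2 at chr3:107101395-107101566 (+), Kcnk10 at chr12:98578311-98578463 (-), Kcng4 at chr8:119635681-119635930 (-), Kcnj16 at chr11:110967783-110968032 (+) and Kcnj13 at chr1:87394730-87394979 (-). The Kcna2 stretch follows an annotated Kcna2 exon. Capitals mark CAGCTG, an E-box of the kind bound by basic helix-loop-helix factors, which reads the same on both strands.
Kcnh6: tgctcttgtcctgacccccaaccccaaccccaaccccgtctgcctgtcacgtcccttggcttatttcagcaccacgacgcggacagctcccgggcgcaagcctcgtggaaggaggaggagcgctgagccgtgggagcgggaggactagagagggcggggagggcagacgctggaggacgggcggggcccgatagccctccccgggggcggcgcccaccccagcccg
Kcna2: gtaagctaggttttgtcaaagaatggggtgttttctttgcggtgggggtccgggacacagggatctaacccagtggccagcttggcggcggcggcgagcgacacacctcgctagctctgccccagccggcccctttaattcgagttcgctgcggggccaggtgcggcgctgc
Kcnk10: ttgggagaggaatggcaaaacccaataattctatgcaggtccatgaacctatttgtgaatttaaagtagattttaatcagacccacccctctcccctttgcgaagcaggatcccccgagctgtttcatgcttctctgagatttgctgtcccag
Kcng4: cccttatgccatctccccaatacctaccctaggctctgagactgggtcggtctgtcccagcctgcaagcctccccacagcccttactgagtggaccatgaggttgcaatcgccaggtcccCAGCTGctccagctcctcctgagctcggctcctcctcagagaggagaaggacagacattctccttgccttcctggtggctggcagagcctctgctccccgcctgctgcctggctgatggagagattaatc
Kcnj16: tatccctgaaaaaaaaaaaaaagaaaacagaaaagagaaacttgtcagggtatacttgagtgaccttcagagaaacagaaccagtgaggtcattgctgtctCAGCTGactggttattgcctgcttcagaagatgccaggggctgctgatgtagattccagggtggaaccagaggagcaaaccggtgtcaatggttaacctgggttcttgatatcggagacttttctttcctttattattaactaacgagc
Kcnj13: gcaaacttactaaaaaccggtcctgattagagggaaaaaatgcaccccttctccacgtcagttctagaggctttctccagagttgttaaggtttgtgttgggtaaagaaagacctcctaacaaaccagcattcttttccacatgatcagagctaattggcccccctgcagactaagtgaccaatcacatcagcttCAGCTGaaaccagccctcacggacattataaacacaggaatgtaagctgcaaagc
Among these, the Kcng4, Kcnj16 and Kcnj13 windows were not trimmed, and each held 1 CAGCTG. This motif was present in 13.0% of all 32851 RefSeq windows of 250 bases. TGGGAA, the core letters of the motif of RBPJ, the DNA-binding partner of the Notch intracellular domain, was searched on both strands and had no match in any of the 6 stretches, against 21.6% of all windows. The 3 trimmed stretches are shorter than the windows behind these shares.

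A small number of subunits held most of the channel transcripts. Levels between genes are given as RPKM, the RPM value divided by the exon length in kilobases. Kcnk1, which encodes the leak channel TWIK-1, was first at a mean of 95.6 RPKM over 14 libraries and made up 29.6% of the mean summed RPKM of the 71 subunit genes. It was followed by Kcnj16 (Kir5.1, a subunit that assembles with Kir4.1) at 62.9 RPKM, Kcnj13 (Kir7.1) at 24.7 RPKM, Kcnh6 (ERG2, of the ether-a-go-go-related family) at 24.6 RPKM and Kcnj10 (Kir4.1, the glial and supporting cell inward rectifier) at 21.6 RPKM. These 5 genes reached 71.1% of the sum. Kcnj13 and Kcnh6 lay closer together than the spread of either between libraries, from 5.93 to 66.3 RPKM for Kcnj13 and from 3.43 to 84.8 RPKM for Kcnh6. The order depended on the group. By group mean at P0, Kcnh6 came second to Kcnk1 in both treatments, at 54.4 RPKM with CompE and 24.0 RPKM in DMSO. Kcnj16 was at 35.4 and 21.3 RPKM. This order did not hold in every P0 library. In CompE replicate 1, Kcnh6 was at 84.8 RPKM and lay above Kcnk1. Kcnj16 lay above Kcnh6 in DMSO replicates 2 and 3 and in CompE replicate 2. Kcnj10 lay above Kcnh6 in replicate 3 of both treatments. At P6, Kcnh6 was at 5.71 and 4.47 RPKM, while Kcnj16 reached 118 RPKM with CompE, level with Kcnk1 at 118 RPKM, and 100.01 RPKM in DMSO, against 115 RPKM for Kcnk1.

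Kcna10 (a Kv1 family subunit) followed at 15.5 RPKM, then the silent subunit Kcns3, which modifies Kv2 channels, at 9.72 RPKM, Kcnh8 (ELK1) at 7.86 RPKM and the acid-sensitive leak channel Kcnk3 (TASK-1) at 7.27 RPKM. The last 3 of these overlapped in range over the libraries. Kcnmb2, a BK beta subunit, was the highest accessory gene at 5.11 RPKM. Kcnma1, which encodes the BK pore that Kcnmb2 binds, was far lower at 0.224 RPKM and ranked 51 of 71. Its exon length was 16976 bases, against 3128 for Kcnmb2, so the gap between them is smaller on RPM. No KCa gene exceeded a mean of 1.02 RPKM, the value of Kcnn2 (SK2).

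**Figure D1:**
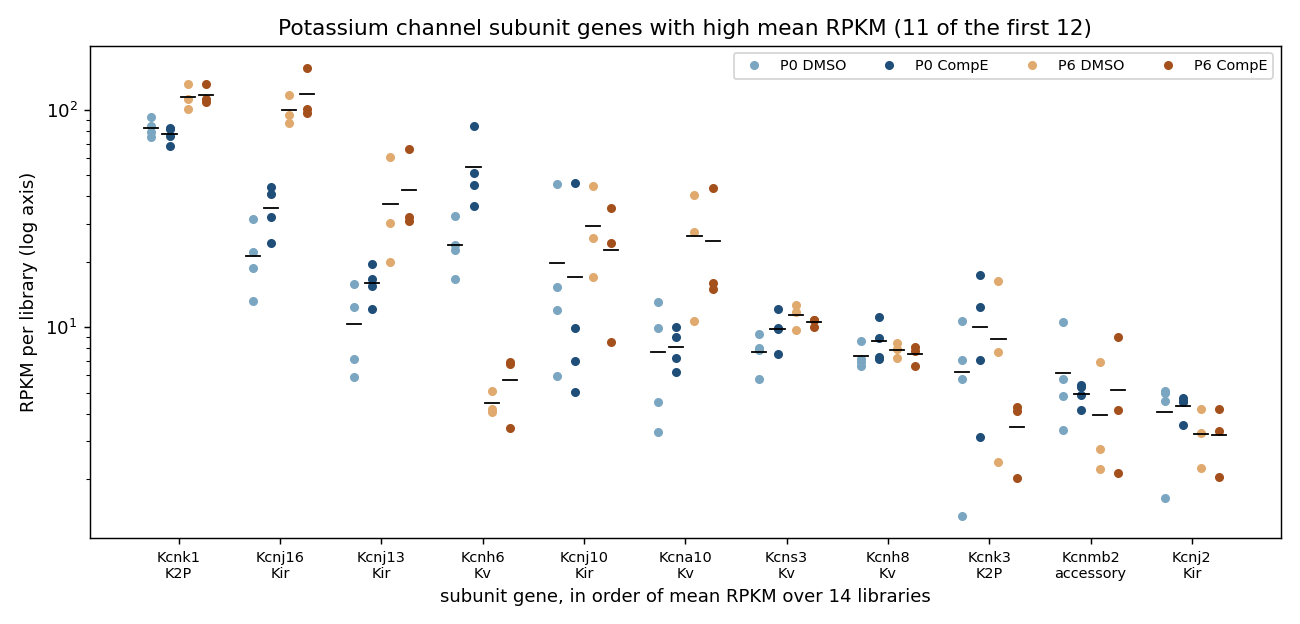
RPKM in each library (log axis) for 11 of the 12 subunit genes with the highest mean RPKM, with short lines at the group means. Kcnk1 lies within a narrow band in every group, Kcnj16 and Kcnj13 sit higher at P6 than at P0, and Kcnh6 sits lower at P6 and higher with CompE at P0.

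By class, K2P genes made up 37.5% ± 4.79 (SD, n = 4) of the summed RPKM in P0 DMSO libraries, Kv genes 32.9% ± 2.90, Kir genes 22.6% ± 8.20, accessory genes 5.93% ± 1.63 and KCa genes 1.04% ± 0.206. In P6 DMSO libraries Kir genes made up 44.3% ± 7.34 (SD, n = 3), K2P genes 32.1% ± 6.07 and Kv genes 19.8% ± 4.45. The Kir share ranged from 12.6% to 32.5% in P0 DMSO and from 36.1% to 50.1% in P6 DMSO, so the groups did not overlap. The Kv share ranged from 29.8% to 36.1% and from 14.6% to 22.4%, again with no overlap. A share also depends on the other classes. The summed Kv RPKM overlapped, at 67.6 to 89.1 in P0 DMSO and 54.7 to 91.0 in P6 DMSO. The Kir sum was higher at P6 without overlap, at 27.8 to 97.4 and 141 to 191. So was the K2P sum, at 84.8 to 97.5 and 106 to 148, although the mean K2P share was lower. With CompE at P0 the Kv share was 38.9% ± 9.38 (SD, n = 4), and its range of 31.5% to 51.8% overlapped that of DMSO. On RPM, which takes no account of length, K2P genes made up 24.9% and Kv genes 43.4% in P0 DMSO, so their order there depended on the length correction.

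**Figure D2:**
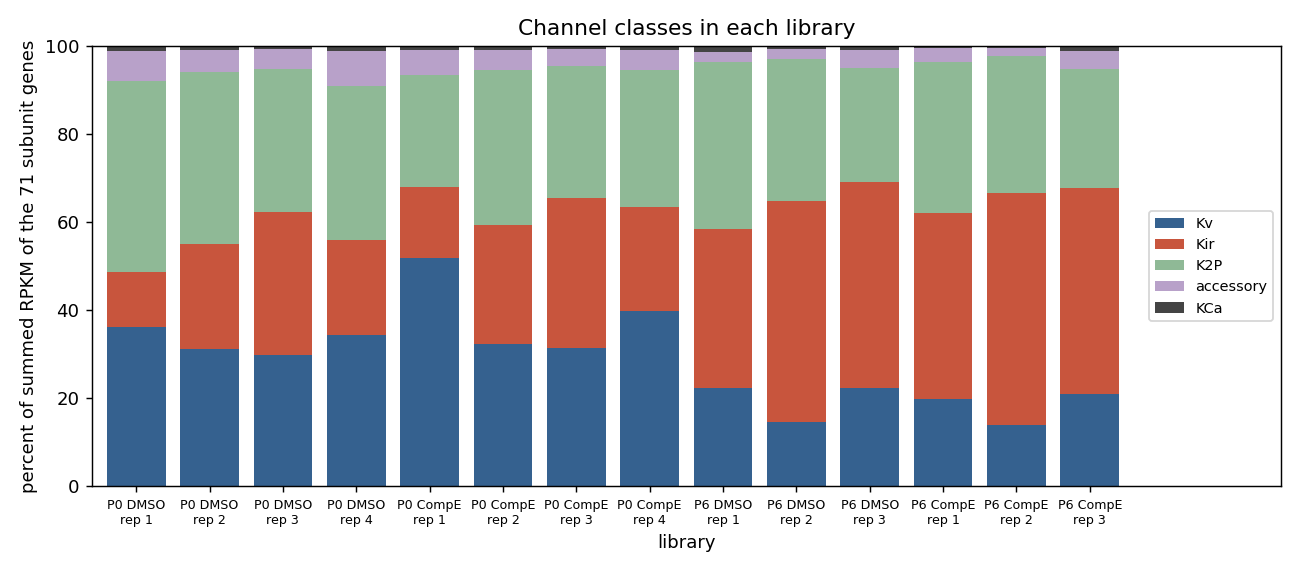
Share of each channel class in the summed RPKM of the 71 subunit genes, as stacked bars for each of the 14 libraries. The Kir share is 36.1% or more in every P6 library and 33.9% or less in every P0 library, and KCa genes form a thin band in all of them.

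The comparison of CompE with DMSO at P0 asked which channel genes differ when Notch signaling is blocked at an age when supporting cells can still form hair cells. Kcng4, an electrically silent subunit of Kv2 channels, fell. Kcnh6 was higher, and Kcna2 (Kv1.2) and the leak channel Kcnk10 (TREK-2) were lower, in all 4 CompE libraries than in all 4 DMSO libraries, but these 3 did not pass the test in the fit of the 8 P0 libraries without a block. They passed with a block for replicate number or for batch, and with DESeq2. The test was edgeR's quasi-likelihood test with Benjamini-Hochberg adjustment over all genes, called at an adjusted p of 0.01 or less and a fold of 2 or more. It called 1 of 60 subunits tested, beside 1.22% of all 15937 genes (0.985% lower). With the block it called 4 of 60 (1 higher and 3 lower), beside 2.2% of all genes (0.684% higher and 1.51% lower). DESeq2 without a block called the same 4 genes, beside 2.64% of all genes. At an adjusted p of 0.05 or less and any fold, edgeR passed 3 subunits without the block, beside 3.87% of all genes, and 7 with it, beside 7.5%. Across the 60 subunits, 25 log2 fold changes were positive and 35 negative, with a median of -0.13 against 0.01 over all genes tested. An unadjusted p under 0.05 was reached by 11 of the 60, beside 13.4% of all genes. RPM did not overlap between treatments for 5 of the 71 subunit genes (Kcnh6, Kcna2, Kcnk10, Kcng4 and Kcnj11), beside 9.43% of all genes that pass the same count minimum.

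Kcnh6 was at 301, 128, 160 and 183 RPM in the CompE libraries (replicates 1 to 4) and at 115, 59.4, 84.7 and 80.8 RPM in the DMSO libraries. Every CompE library was above every DMSO library, and each was higher than its partner of the same number, by log2 ratios of 0.92 to 1.39. The log2 fold change was 1.14 ± 0.24 (SE; adjusted p = 0.0287, edgeR) without the block and 1.11 (adjusted p = 0.000593) with it. Over its 19 alternatives the adjusted p ranged from 0.000233 to 0.225.

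Kcna2, a delayed rectifier subunit, was at 7.79, 11.9, 16.0 and 14.6 RPM with CompE and at 18.3, 35.0, 23.7 and 32.2 RPM in DMSO. The lowest DMSO library was above the highest CompE library. The log2 fold change was -1.16 ± 0.29 (adjusted p = 0.0593, edgeR), and with the block the adjusted p was 0.00471. It ranged from 0.00257 to 0.304 over the alternatives. Its relatives Kcna3 and Kcna10 lie next to it on chromosome 3, 63.1 and 68.1 kb away. Kcna10 was at 13.4, 21.7, 19.6 and 15.7 RPM with CompE and at 7.11, 9.84, 28.3 and 21.6 RPM in DMSO, overlapping groups with no call.

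Kcnk10 was at 0.225, 0.876, 0.612 and 0.0316 RPM with CompE and at 1.10, 17.7, 9.24 and 6.08 RPM in DMSO. DMSO replicate 1 lay close to the CompE libraries, and the other DMSO libraries lay well above them. The log2 fold change was -4.44 ± 0.94 (adjusted p = 0.0290, edgeR) and with the block -4.18 (adjusted p = 0.00286), with adjusted p from 0.00105 to 0.156 over the alternatives. The counts behind the CompE values were 10, 17, 21 and 1.

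Kcng4 was close to the floor with CompE, at 1, 0, 3 and 2 counts, against 16, 43, 33 and 24 counts in DMSO. In RPM this was 0.0433 ± 0.0394 (SD, n = 4) against 0.880 ± 0.224. The pooled counts of 6 and 116 give a level 19.6-fold lower with CompE, with a 95% interval of 8.72 to 54.4 (exact, counting error only). The fitted log2 fold change was -4.21 ± 0.62 (adjusted p = 0.00479, edgeR). The call was lost in 11 of 12 fits that left out a library or a pair. These were each fit without a pair, and each fit without CompE replicate 1, 2, 3 or 4 or DMSO replicate 2, 3 or 4. No subunit passed in those fits without 1 library. Kcng4 and Kcnk10 both passed without DMSO replicate 1. The adjusted p of Kcng4 ranged from 2.47e-06 to 0.0641 over the alternatives.

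The next members were on the same side in every pair without passing both thresholds. Kcnj16 was at 96.1, 161, 174 and 127 RPM with CompE and at 51.8, 87.0, 124 and 73.5 RPM in DMSO, so the groups overlapped while each pair was higher with CompE. Its log2 fold change was 0.69 ± 0.29 (adjusted p = 0.334, edgeR), and with the block 0.72 (adjusted p = 0.00411), under 2-fold. Kcnb2 (Kv2.2), named after its values were seen, was at 23.0, 49.4, 62.6 and 40.1 RPM with CompE and at 34.8, 96.5, 113 and 77.1 RPM in DMSO. It was lower in 4 of 4 pairs, with a log2 fold change of -0.92 ± 0.40 (adjusted p = 0.340) and with the block -0.88 (adjusted p = 0.00141), also under 2-fold. Amigo1, an auxiliary protein of Kv2 channels that is not a Kcn gene, was at 58.9, 95.9, 128 and 93.6 RPM with CompE and at 50.5, 50.5, 75.2 and 53.5 RPM in DMSO. With the block its adjusted p was 0.0188, against 0.225 without it.

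**Figure D3:**
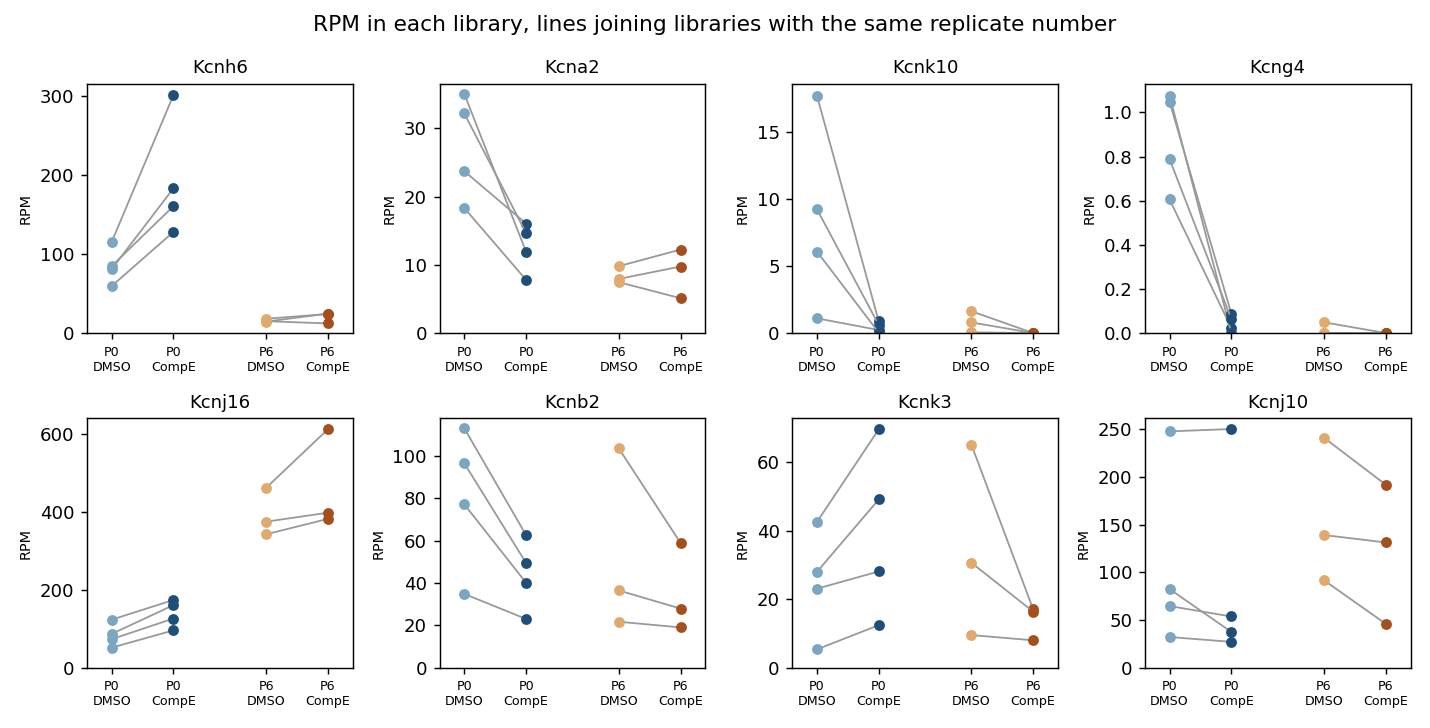
RPM in each library for 8 members, with lines joining libraries of the same replicate number. At P0 (4 pairs) Kcnh6 and Kcnj16 are higher and Kcna2, Kcnk10, Kcng4 and Kcnb2 lower with CompE in every pair, Kcnk3 is higher in 4 of 4 P0 pairs and lower in 3 of 3 P6 pairs, and Kcnj10 differs more between replicate numbers than between treatments.

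The most abundant subunit, Kcnk1, was at 172 ± 15.2 RPM (SD, n = 4) with CompE and 186 ± 17.8 RPM in DMSO at P0, overlapping groups. Kcna1 (Kv1.1) was at 1.76, 1.03, 2.10 and 1.89 RPM with CompE and 0.341, 0.551, 0.603 and 1.41 RPM in DMSO. Its log2 fold change was 1.17 ± 0.47 (adjusted p = 0.294, edgeR). The summed hair cell markers were higher with CompE in each P0 pair, but the groups overlapped. Atoh1, Pou4f3, Gfi1 and Myo6 were higher in 4 of 4 pairs and Myo7a in 3. Otof and Calb2 were higher in 2 of 4 pairs and Pvalb in 1. The part of these markers in the channel values was not tested. Kcnj10 had no common direction. It was at 27.2, 37.6, 250 and 53.8 RPM with CompE and at 32.2, 82.5, 248 and 64.7 RPM in DMSO, and both replicate 3 libraries stood far above the other P0 libraries. Those 2 libraries share a batch with replicate 4, where Kcnj10 was low.

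By class, no Kir, KCa or accessory gene was called at P0. With the block, 3 of 28 Kv genes (1 higher, 2 lower) and 1 of 7 K2P genes (lower) were called. Of the 9 auxiliary partners of these channels that are not Kcn genes, none of the 7 tested was called. Lrrc55, a gamma subunit of BK channels, was at 2.18, 2.58, 1.55 and 1.58 RPM with CompE and at 0, 0.125, 0.127 and 0.329 RPM in DMSO, with no overlap and an adjusted p of 0.0142 (edgeR), and 0.0131 with the block. Of 11 other potassium transport genes, none of the 10 tested was called without the block. With it 1 was called, as lower. Slc12a2, the sodium-potassium-chloride cotransporter, was at 314 to 354 RPM with CompE and 180 to 277 RPM in DMSO (adjusted p = 0.169, and 0.0256 with the block). The 5 endothelium and pericyte markers summed to 26.3 to 58.0 RPM with CompE and 165 to 294 RPM in DMSO. Nearly all of this was Pdgfrb, at 23.9 to 56.0 RPM against 162 to 291 RPM, while Pecam1, Cdh5, Cldn5 and Rgs5 overlapped between treatments and reached at most 2.94 RPM. Their part in the channel differences was not tested.

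At P6 the same comparison called no subunit. None of the 59 tested passed with edgeR, with or without the block, or with DESeq2, and none had an unadjusted p under 0.05 in the fit without the block, beside 1.89% of all 15322 genes. Over all genes edgeR called 0.0% and DESeq2 0.0633%. RPM did not overlap between treatments for 2 of the 71 subunit genes (Kcnab3 and Kcnk10), beside 6.84% of all genes. Log2 fold changes were positive for 28 subunits and negative for 31, and their median was -0.05 (0.00 for the whole table). Kcnh6 was at 24.0, 24.6 and 12.2 RPM with CompE and at 18.1, 14.5 and 15.0 RPM in DMSO, higher in 2 of 3 pairs (log2 fold change 0.38 ± 0.32). Kcna2 was at 9.75, 12.2 and 5.10 RPM with CompE and at 7.93, 9.80 and 7.45 RPM in DMSO. Kcng4 had at most 2 counts in any P6 library. Kcnk10 had no count in the P6 CompE libraries and 39, 22 and 2 counts in P6 DMSO. With a floor of 3 counts over the group, its pooled level was at least 18.4-fold lower with CompE. This bound leaves out the spread between libraries, and the replicate 3 pair held 2 counts against none. Kcnk10 was not tested with edgeR at P6 after the filter on low counts, and DESeq2 did not call it.

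Kcnk3 at P6 was at 17.1, 16.4 and 8.01 RPM with CompE and at 65.1, 30.6 and 9.54 RPM in DMSO, lower in each pair, and DMSO replicate 3 lay below both other CompE libraries. Kcnb2 was lower in 3 of 3 pairs and Kcnj16 higher in 3 of 3, as at P0, with no call for either.

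Whether responses to CompE differed between ages was tested as an interaction over all 14 libraries. No subunit of 69 tested was called with or without the block or with DESeq2, beside 0.0% of all 17090 genes with edgeR, 0.0936% with the block and 0.208% with DESeq2. An unadjusted p under 0.05 was reached by 4 of the 69, among them Kcna2, Kcnn4 and Kcnn1, beside 4.75% of all genes. For Kcnk3, higher with CompE in 4 of 4 pairs at P0 and in 0 of 3 at P6, the CompE response at P6 minus that at P0 was -1.94 ± 1.01 on the log2 scale (adjusted p = 1.00, edgeR), and with the block -1.72 (adjusted p = 0.102). For Kcnh6 it was -0.75 ± 0.41 (adjusted p = 1.00). The larger number of calls at P0 was therefore not shown to be a difference between ages for any named subunit.

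The comparison of P6 with P0 in DMSO asked how the channel genes differ with age. Kcnj16 and Kcnj13 and the low-level Kcnc4 (Kv3.4) rose, and Kcnh6, Kcna2 and Kcng4 fell. These were 6 of 69 subunits tested, beside 7.12% of all 17090 genes (3.74% higher and 3.38% lower). By class the calls were 4 of 31 Kv genes (1 higher, 3 lower) and 2 of 10 Kir genes (both higher). None of 7 KCa, 8 K2P or 13 accessory genes was called. The unadjusted p was under 0.05 for 25 of the 69, beside 35.5% of all genes. All but 1 of the 10 Kir genes had positive log2 fold changes, with a median of 1.33, while the median was 0.04 over all subunits and -0.05 over all genes. RPM did not overlap between ages in DMSO for 17 of the 71 subunit genes, beside 30.9% of all genes. P0 and P6 libraries shared no batch, so age and batch cannot be told apart. The 10 supporting cell markers summed to 6026 to 11334 RPM in P0 DMSO and 3159 to 6895 RPM in P6 DMSO, which overlapped. With CompE they summed to 5180 to 6208 RPM at P0 and 2240 to 4078 RPM at P6, without overlap. In DMSO, Sox2, Jag1 and Matn4 of this list fell with age (log2 fold changes -1.37, -1.74 and -4.07) and Rorb rose (1.01). Prox1 (348 to 699 RPM at P0, 32.8 to 212 RPM at P6), Fgfr3 (1231 to 1881 and 218 to 1034 RPM) and Sox9 (1071 to 1486 and 521 to 962 RPM) were also lower at P6 without overlap. Lfng, Cdkn1b and Fabp7 overlapped between ages, and the mean of Fabp7 was higher at P6. Their part in the age differences was not tested.

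Kcnj16 was at 51.8, 87.0, 124 and 73.5 RPM in P0 DMSO and at 343, 462 and 375 RPM in P6 DMSO. The lowest P6 library was above the highest P0 library, and the log2 fold change was 2.29 ± 0.31 (adjusted p = 0.000222, edgeR). It was called in each of its 21 alternatives, including without both replicate 3 libraries at P6 (log2 fold change 2.37) and in the CompE libraries (1.88). In those CompE libraries, 4 of 69 subunits were called between ages (Kcnj16, Kcnj15, Kcnh6 and Kcnf1), beside 6.43% of all genes. Kcnj10, whose product assembles with that of Kcnj16 in one channel, was at 32.2, 82.5, 248 and 64.7 RPM in P0 DMSO and 91.7, 241 and 139 RPM in P6 DMSO, overlapping groups with no call.

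Kcnj13, known from fluid-transporting epithelia, was at 7.53, 9.11, 15.8 and 20.02 RPM in P0 DMSO and at 38.4, 25.3 and 77.5 RPM in P6 DMSO, with no overlap and the highest value in replicate 3. Its log2 fold change was 1.89 ± 0.40 (adjusted p = 0.00481, edgeR), and without both replicate 3 libraries at P6 it was 1.38 (adjusted p = 0.0152), no longer called. It was also not called in the 7 DMSO libraries alone (adjusted p = 0.0222) or in the CompE libraries (log2 fold change 1.55, adjusted p = 0.0141). Exons of Kcnj13 overlap exons of Gigyf2 on the other strand, and the use of strand in counting was not given in the sources used here, so its reads cannot be told apart from those of Gigyf2.

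Kcnh6 was at 115, 59.4, 84.7 and 80.8 RPM in P0 DMSO and at 18.1, 14.5 and 15.0 RPM in P6 DMSO. The groups lay far apart, and the log2 fold change was -2.34 ± 0.31 (adjusted p = 0.000179, edgeR), called in each of 21 alternatives. In the CompE libraries it was -3.09 (adjusted p = 2.9e-05). Kcna2 was at 18.3, 35.0, 23.7 and 32.2 RPM in P0 DMSO and at 7.93, 9.80 and 7.45 RPM in P6 DMSO (log2 fold change -1.64 ± 0.36, adjusted p = 0.00589). Between the CompE libraries of both ages its log2 fold change was -0.34 (adjusted p = 0.519), with no call. Without both replicate 3 libraries at P6 the adjusted p was 0.0125, and the call was lost in 7 of 15 fits that left libraries out, among them each fit without 1 P6 DMSO library or without P0 DMSO replicate 2, 3 or 4.

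Kcng4 had 16, 43, 33 and 24 counts in P0 DMSO and 0, 0 and 2 counts in P6 DMSO (fitted log2 fold change -5.20 ± 1.13, adjusted p = 0.00686, edgeR). When libraries were left out its log2 fold change ranged from -7.74 to -4.77, and the call was lost in 8 of 15 such fits, those without P0 DMSO replicate 1, 2, 3 or 4, P6 DMSO replicate 1 or 2, or P0 CompE replicate 3 or 4. Kcnc4, a Kv3 family subunit, had 1, 7, 4 and 5 counts in P0 DMSO and 116, 17 and 54 counts in P6 DMSO. In RPM it was at 0.126 ± 0.0624 (SD, n = 4) and 2.25 ± 2.27 (SD, n = 3), and the log2 fold change was 4.13 ± 0.84 (adjusted p = 0.00356), a call lost without P0 DMSO replicate 1, 3 or 4 or P6 DMSO replicate 1. Both are low-level genes, and neither was called in the CompE libraries of both ages or in a fit of the 7 DMSO libraries alone.

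**Figure D4:**
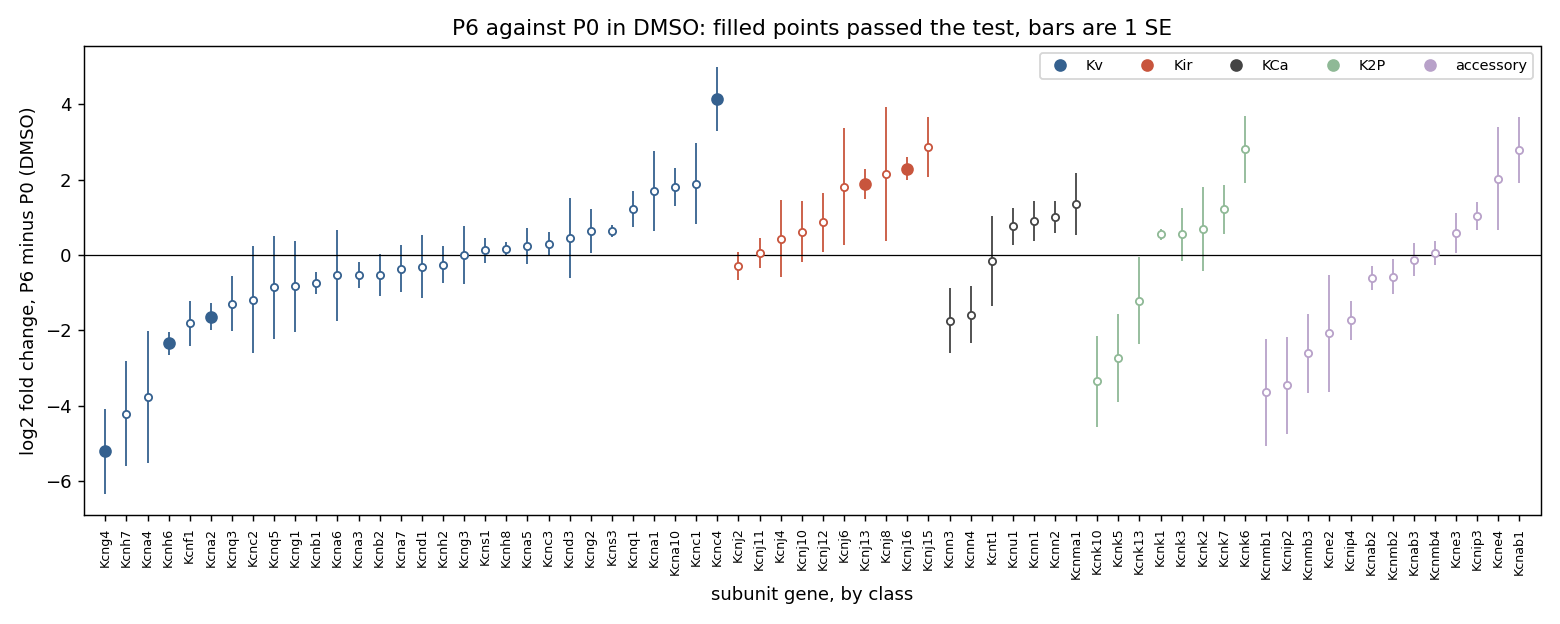
Log2 fold change, P6 minus P0 in DMSO, for 68 of the 69 subunit genes tested, by class and in order of size within each class, with bars of 1 SE and filled points for the 6 genes called. Kir genes sit above 0 with 1 exception, and Kv genes spread to both sides.

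Several other members did not pass both thresholds. Kcnk1 was at 186 ± 17.8 RPM (SD, n = 4) in P0 DMSO and 257 ± 34.2 RPM (SD, n = 3) in P6 DMSO without overlap (log2 fold change 0.54 ± 0.14, adjusted p = 0.0131, edgeR), under 2-fold. Kcna10 was at 7.11, 9.84, 28.3 and 21.6 RPM in P0 DMSO and 59.6, 23.1 and 88.0 RPM in P6 DMSO (log2 fold change 1.80 ± 0.51, adjusted p = 0.0222), overlapping groups. At an adjusted p of 0.05 or less and no fold threshold, 15 of the 69 passed (9 higher, 6 lower), beside 22.5% of all genes. The 9 others than those called were Kcnk1, Kcns3, Kcnj15, Kcna10, Kcnk6 and Kcnab1 (higher) and Kcnip4, Kcnf1 and Kcnh7 (lower). DESeq2 called 13 at the main thresholds, beside 11.1% of all genes.

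Kcns3 was at 25.4, 18.3, 24.8 and 29.3 RPM in P0 DMSO and 40.2, 30.7 and 37.0 RPM in P6 DMSO without overlap (log2 fold change 0.63 ± 0.16, adjusted p = 0.0137, edgeR). Kcnj15 (Kir4.2) was at 0.454, 0.451, 1.14 and 0.131 RPM in P0 DMSO and 2.96, 1.58 and 7.04 RPM in P6 DMSO (log2 fold change 2.85 ± 0.80, adjusted p = 0.0199), again without overlap and with the highest value in replicate 3. Kcnab1, a cytoplasmic beta subunit of Kv1 channels, was at 0.227, 0.401, 2.51 and 1.31 RPM and at 8.63, 1.08 and 13.0 RPM, and the groups overlapped. Kcnh7 (ERG3), a relative of Kcnh6, was at 8.51, 3.86, 1.33 and 4.86 RPM in P0 DMSO, while at P6 DMSO replicates 1 and 2 had no count and replicate 3 was at 0.655 RPM. Kcnh8, of the same family, overlapped between ages, at 33.5 ± 4.12 RPM (SD, n = 4) and 35.7 ± 2.83 RPM (SD, n = 3). Kcnip4, a calcium-binding partner of Kv4 channels, was at 4.79 to 9.29 RPM in P0 DMSO and 0.849 to 2.52 RPM in P6 DMSO. Kcnf1, a silent partner of Kv2, was at 3.81 to 7.39 RPM and 0.828 to 2.42 RPM. Both were lower at P6 without overlap, with adjusted p of 0.0273 and 0.0423 (edgeR).

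KCa and accessory genes were mostly at low levels in all groups. Kcnn1 (SK1) was at 3.22, 3.28, 2.22 and 3.81 RPM in P0 DMSO and at 10.9, 2.63 and 3.23 RPM in P6 DMSO, where replicate 1 was alone in being high. Kcnu1, a Slo family gene, was between 0.796 and 3.42 RPM in all 14 libraries. Kcnab2, a further Kv1 beta subunit, was at 8.16 to 10.7 RPM in P0 DMSO and 2.88 to 8.74 RPM in P6 DMSO. Kcnip3, a further Kv4 partner, was at 2.08 to 4.57 RPM and 3.75 to 8.09 RPM. Both overlapped between ages and were not called.

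Several subunits known from mature hair cells had their highest P6 values in replicate 3. Kcnma1 was at 2.29, 1.12 and 14.4 RPM in P6 DMSO and at 2.51, 1.01 and 14.5 RPM in P6 CompE, so both replicate 3 libraries, which also had the highest hair cell and mesenchyme marker sums at P6, stood out at almost the same level. In P0 DMSO it was at 1.93, 2.25, 3.62 and 1.74 RPM. Kcnmb2 was likewise highest at P6 in replicate 3, at 28.3 RPM (CompE) and 21.5 RPM (DMSO), and Kcnn2, whose SK2 channel inhibits hair cells at efferent synapses, at 16.4 and 13.9 RPM. Kcnq1 was at 2.45 ± 1.35 RPM (SD, n = 4) in P0 DMSO and 5.51 ± 2.69 RPM (SD, n = 3) in P6 DMSO, without a call, and overlaps exons of Kcnq1ot1 on the other strand. Its partner Kcne1 had no count in 11 of 14 libraries and at most 6 in any.

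Among the partners, Lrrc55 rose with age. It was at 0, 0.125, 0.127 and 0.329 RPM in P0 DMSO and at 7.59, 62.7 and 184 RPM in P6 DMSO (log2 fold change 9.17 ± 1.08, adjusted p = 6.55e-05, edgeR), the only call among 9 partners. Its highest values at P6 were again in replicate 3 of both treatments. Of the 11 other potassium transport genes, 4 were called as higher and none as lower. Their log2 fold changes were positive for 7 and negative for 4. Gjb6 (connexin 30), a gap junction gene of supporting cells, was at 209 to 306 RPM in P0 DMSO and 775 to 1146 RPM in P6 DMSO (log2 fold change 1.83 ± 0.22, adjusted p = 8.53e-05, edgeR). Its gap junction partner Gjb2 (connexin 26) and the sodium pump beta subunit gene Atp1b1 were among the others called, with log2 fold changes of 1.12 ± 0.20 and 1.06 ± 0.20. Slc12a2 went the other way without a call, at 180 to 277 RPM in P0 DMSO and 98.8 to 177 RPM in P6 DMSO, without overlap.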

How the data were processed

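RNA of sorted EGFP+ cells was amplified as full-length cDNA (SMART-Seq v4 PLUS, no molecular identifiers), then sequenced on a NextSeq. Per the submitters' processing notes, the authors trimmed reads with Trim Galore 0.6.0 and cutadapt 1.15 and aligned them with STAR 2.7.0f to mm10. The study's methods give another STAR version, and the annotation release and use of strand were not given in the sources used here. The deposited values are raw counts per gene, with 19415066 to 44430063 counts per library. Counting intervals cover counting error only. No label says that replicates came from separate animals beyond the pools, so p-values measure the spread between these libraries.

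Groups came from the labels. RPM and RPKM (union exon length, GENCODE M21) were computed from the counts. edgeR 4.0.16 (TMM, filterByExpr with a minimum count of 10, quasi-likelihood test) was fitted over all genes within each age. The interaction and the age comparison were fitted over 14 libraries. SE is the log2 fold change divided by the square root of F. Same-numbered CompE and DMSO libraries share a batch in the labels, and their deviations from the group means correlated at 0.144 to 0.451 (P0) and 0.255 to 0.604 (P6), above every other pairing, so the replicate number pairs them. Age has no such fit. The script was tested on simulated data. Alternatives were DESeq2 1.42.0, its size factors, no filter, a looser threshold, thinned counts, blocks, other sets of libraries and leaving libraries out.

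Named genes were those called, the 5 with the smallest p in each CompE comparison and in the interaction, the 3 with the highest mean RPKM per class, and those with known cochlear roles (among them Kcnj10, Kcnj16, Kcnq1, Kcne1, Kcnma1, Kcnn2 and Kcna10). A few genes that entered the fits and counts are not reported here. Other genes were named after their values were seen. Members and lists were chosen with earlier results of these data known.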

Additional observations from a re-analysis of the deposited data

Results flagged for a closer look

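Values of the named genes were examined in 49 groups of 4 libraries for a highest or lowest library far from the others, which chance would give in about 5% of groups, and 2 were found. Kcnj10 was at 250 RPM in P0 CompE replicate 3, against 27.2 to 53.8 RPM in the other P0 CompE libraries, and DMSO replicate 3 had nearly the same level, 248 RPM. Kcnma1 was at 2.59 RPM in P0 CompE replicate 3, against 1.64 to 1.80 RPM in the others.

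The direction of the CompE response differed between ages in every pair for 2 genes. Kcnk3 was higher with CompE in 4 of 4 pairs at P0 and lower in 3 of 3 at P6, and the difference of the responses (P6 minus P0) was -1.94 on the log2 scale with an adjusted p of 1.00 (edgeR interaction). Kcnn4, the intermediate-conductance calcium-activated channel gene, was lower in 4 of 4 pairs at P0 and higher in 3 of 3 at P6, with a difference of 2.52 and an adjusted p of 0.932, at 1 to 70 counts per library.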

How the results depend on the processing

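The 1 subunit called at P0 (Kcng4) became 4 with DESeq2, with the replicate block and with the batch block (Kcna2, Kcng4, Kcnh6 and Kcnk10 in all 3), 3 once the threshold was loosened to an adjusted p of 0.05 and any fold, and 7 when the replicate block was combined with that looser threshold, an alternative chosen after seeing the data. It became 0 in the fit of all 14 libraries. Leaving out a library or a pair gave 0 to 2. For P6 against P0 in DMSO the 6 calls became 13 with DESeq2, 15 under the looser threshold and 3 in the 7 DMSO libraries alone, and ranged from 3 to 7 when libraries were left out. The lowest count followed leaving out P0 DMSO replicate 1, 2, 3 or 4 or P6 DMSO replicate 1. Counts at P6 and for the interaction stayed at 0 in every alternative run, and the replicate block changed no other call of a subunit. The cause of these changes was not tested. Kcnj10 at P0 turned to 0.0427 without P0 CompE replicate 1 and 0.590 without P0 DMSO replicate 3, over a range of -1.499 to 0.59. Shares of summed RPKM are the same under TMM scaling, which multiplies all genes of a library alike, and 9 of 20 class shares moved by more than 1 SD on RPM. Members with few counts, such as Kcng4, Kcnk10 and Kcnc4, rest on the least precise values.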
